A study of Mus musculus with 6 samples.

Results

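The 10 genes described here encode RNA-binding proteins that choose alternative exons in muscle: the muscleblind genes Mbnl1, Mbnl2 and Mbnl3, the CELF genes Celf1 and Celf2, Rbfox1 and Rbfox2, Rbm24 and Rbm38, and the polypyrimidine tract binding gene Ptbp1. They were found on the array by the RefSeq accessions of its probes, which gave 20 probes for the 10 genes, out of 39429 probes on the array, of which 27234 had a name for 20659 genes. The cells were C2C12, an established mouse myoblast line that divides in serum-rich medium and can fuse into myotubes. Both groups grew with 10% fetal bovine serum, and transfection took place when the cells covered 70 to 80% of the dish. The siRNA-MEG3 group, labelled as knockdown, received siRNA that targets Meg3, a long RNA without a protein product, and the siRNA-NC group, labelled as control, received negative control oligos. The dose is given for the Meg3 siRNA as "20 um", with the unit as the labels print it, and the hours between transfection and RNA collection are not stated in the labels. Each group had 3 arrays, called biological replicates in the labels. All cells came from a single line, and nothing else says that the cultures were independent.

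Muscleblind proteins drive many exons towards the form used in mature muscle, while CELF proteins favour the form of embryonic muscle at many of the same genes. In myotonic dystrophy, expanded CUG repeats trap muscleblind proteins and CELF1 becomes more abundant, so muscle genes revert to embryonic exons. RBFOX proteins act on exons beside their binding sites in both muscle and neurons, RBM24 supports muscle-specific exons and the sarcomere in mouse heart, RBM38 is a close relative of RBM24 known for control of the cell cycle and of RNA stability, and PTBP1 holds muscle and neuronal exons back in dividing cells.

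Arrays 1 and 3 of siRNA-MEG3 had the same deviations of single spots from the mean of their probe, with r = 0.98 over 255 probes printed 10 times, against -0.28 to 0.56 for the other 14 pairs of arrays, as repeat scans of 1 hybridised array do. Arrays 1 and 3 of siRNA-NC differed little beyond the noise between spots, with a between-probe to within-probe variance ratio of 1.28, against 118 for siRNA-NC arrays 1 and 2. Each of these pairs was averaged and counted as 1 sample, which leaves 2 siRNA-MEG3 samples to set against 2 siRNA-NC samples. The siRNA-MEG3 arrays 1 and 2 gave a ratio of 1.07, so the siRNA-MEG3 samples may hold 1 RNA, and p-values measure a spread between samples that may be technical. Each group lay on a slide of its own, and an effect of the slide and one of the siRNA cannot be told apart. Of spots, 63.0, 69.3 and 62.8% were well above background on siRNA-MEG3 arrays 1 to 3, against 70.1, 75.2 and 71.9% on siRNA-NC arrays 1 to 3, and none was saturated. Dark patches were blocks of 30 rows by 17 columns on a siRNA-MEG3 array, called from the contrast between the groups. In each, over 5% of the spots well above background in siRNA-NC lay over 4-fold below the siRNA-NC mean. Other spots in a patch need not be dark. Such patches covered 21.6, 5.95 and 20.5% of the spots of siRNA-MEG3 arrays 1 to 3. They held 8 of the 20 splicing regulator probes on array 1, none of them for Rbm24, Rbfox1, Mbnl1 or Mbnl3. Meg3 itself was too dim to check the labels: its 3 probes were well above background in 0 of 9 readings with siRNA-MEG3 and in 1 of 9 readings with siRNA-NC.

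Promoters are shown for the 2 genes with a probe that passed the test, Rbm24 and Rbfox1, and for Rbm38, the relative of Rbm24 that did not pass it. The windows are those of RefSeq on GRCm38.p6, from 250 bases before to 50 after the start site, 5′ to 3′, and capitals mark CANNTG, the letters bound by myogenic factors such as MyoD and myogenin. The Rbm24 window is chr13:46418050-46418349 (+), the Rbfox1 windows are chr16:5884543-5884842 (+) and chr16:7069585-7069884 (+), and the Rbm38 window is chr2:173021652-173021951 (+).
Rbm24: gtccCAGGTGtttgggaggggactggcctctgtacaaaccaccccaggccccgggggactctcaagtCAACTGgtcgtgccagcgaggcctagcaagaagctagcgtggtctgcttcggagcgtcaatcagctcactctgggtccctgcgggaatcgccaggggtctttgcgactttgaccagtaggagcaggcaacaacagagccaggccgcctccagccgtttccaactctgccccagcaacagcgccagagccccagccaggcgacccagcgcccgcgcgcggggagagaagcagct
Rbfox1, first start site: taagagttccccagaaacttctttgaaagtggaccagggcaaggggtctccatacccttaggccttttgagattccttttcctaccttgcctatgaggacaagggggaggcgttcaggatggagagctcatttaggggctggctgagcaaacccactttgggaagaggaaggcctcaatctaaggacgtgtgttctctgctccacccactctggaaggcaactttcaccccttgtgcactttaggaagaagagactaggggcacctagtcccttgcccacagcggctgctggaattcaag
Rbfox1, second start site: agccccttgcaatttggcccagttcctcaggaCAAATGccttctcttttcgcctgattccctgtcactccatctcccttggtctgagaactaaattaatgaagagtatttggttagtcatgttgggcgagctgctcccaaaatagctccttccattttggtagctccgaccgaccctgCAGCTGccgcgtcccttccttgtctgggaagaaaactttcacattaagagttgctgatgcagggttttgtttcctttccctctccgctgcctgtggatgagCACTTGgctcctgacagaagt
Rbm38: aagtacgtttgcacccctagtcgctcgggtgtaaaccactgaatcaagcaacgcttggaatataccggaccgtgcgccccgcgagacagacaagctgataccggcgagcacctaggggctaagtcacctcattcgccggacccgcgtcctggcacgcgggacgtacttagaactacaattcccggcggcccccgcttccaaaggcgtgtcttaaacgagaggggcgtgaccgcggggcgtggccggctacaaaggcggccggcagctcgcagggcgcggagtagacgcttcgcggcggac

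The Rbm24 window held 2 CANNTG matches, 246 and 183 bases before the start site. The first Rbfox1 window and the Rbm38 window held 0. The second Rbfox1 window held 3, of which 1 was CAGCTG, 72 bases before the start site. Among windows not printed, all of genes without a passing probe, that of Ptbp1 held 3, of which 1 was CAGCTG. Those of Mbnl1 and Celf2 held 0 to 2, that of Mbnl3 held 1, and those of Celf1 and Mbnl2 held 0. Matches thus lay in genes with and without a passing probe. CANNTG and CAGCTG read as themselves on the opposite strand, so 1 search covers both strands. CAGCTG is a form of CANNTG, and they occurred in 72.3 and 16.3% of all 32851 windows of this length. Neither a MEF2 site nor a CArG box, the sites named for the muscle factors MEF2 and SRF, lay in any of the 15 windows matched to 9 of the 10 genes, and 3.19 and 1.63% of all windows held one. Such matches describe the letters only.

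Rbm24 rose with siRNA-MEG3, at 30.1-fold, and no probe of these genes was called lower. For Rbfox1 the result depended on the probe. One passed the threshold, at least 3.89-fold higher, but was tested only because it was above background in siRNA-MEG3, while the one measured in both groups stood 3.52-fold above siRNA-NC and did not pass. No probe of Mbnl1, Mbnl2, Mbnl3, Celf1, Celf2, Rbfox2, Rbm38 or Ptbp1 passed it, and their log2 fold changes lay between -0.48 and 0.96. Of the 20 probes, 19 could be tested, and 2 of these 19 were called higher and 0 lower, at an adjusted p under 0.05 in limma with Benjamini-Hochberg adjustment over 26342 probes. Of all probes tested, 1.36% were called, 0.995% higher and 0.361% lower. At an unadjusted p under 0.05, 6 of the 19 passed, against 19.1% of all probes. All siRNA-MEG3 arrays lay above all siRNA-NC arrays for 11 of the 19 probes (57.9%), against 28.7% of all probes, and below them for 0, against 18.5%. The median log2 fold change of the 19 probes was 0.44, against 0.05 for all probes tested, whose 5th to 95th percentiles ran from -1.19 to 1.06.

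**Figure D1:**
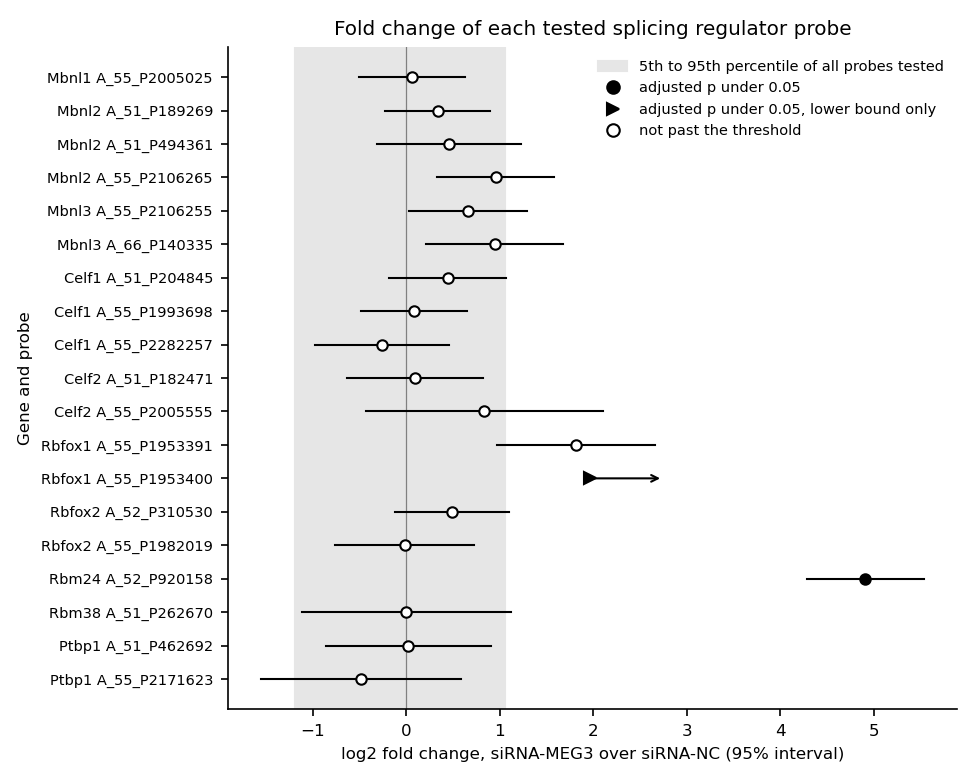
Log2 fold change, siRNA-MEG3 over siRNA-NC, of each of the 19 tested probes with its 95% interval (2 samples per group), with genes down the page in the order of their families. The filled point is Rbm24 at 4.91, the triangle with an arrow is the lower bound of 1.96 for a Rbfox1 probe that was below background in siRNA-NC, open points did not pass an adjusted p of 0.05, and the grey band spans -1.19 to 1.06, the 5th to 95th percentiles of all probes.

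Values of single arrays are log2 processed signals relative to the 75th percentile of their array, in the order of arrays 1, 2 and 3, and a level is compared between groups for a probe and never between probes. Mbnl1, the main muscleblind gene of adult skeletal muscle, lies on chromosome 3 and had 1 probe (A_55_P2005025). It read 4.80, 4.74 and 4.75 in siRNA-MEG3, against 4.73, 4.62 and 4.81 in siRNA-NC. The groups overlapped, and the log2 fold change was 0.06 ± 0.21 (SE, n = 2 samples per group; 95% interval -0.50 to 0.63; limma adjusted p = 0.914). Its sign turned with normexp background correction (-0.40, or -0.05 with speck spots left out) and with outlier spots kept (-0.02).

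Mbnl2, which shares many targets with Mbnl1 and lies on chromosome 14, had 3 probes, all with every siRNA-MEG3 array above every siRNA-NC array. Probe A_55_P2106265 stood furthest apart, at 0.32, 0.22 and 0.29 in siRNA-MEG3, against -0.86, -0.54 and -0.86 in siRNA-NC. This is a 1.94-fold difference (log2 0.96 ± 0.23, 95% interval 0.33 to 1.59) that did not pass the threshold (limma adjusted p = 0.158). Probe A_51_P494361 read 2.49, 2.45 and 2.48 in siRNA-MEG3, against 1.68, 2.3 and 1.77 in siRNA-NC. Here siRNA-NC array 2 lay close to the siRNA-MEG3 arrays, and the log2 fold change was 0.46 ± 0.28 (limma adjusted p = 0.471). Probe A_51_P189269 read 2.62, 2.50 and 2.58 in siRNA-MEG3, against 2.15, 2.27 and 2.17 in siRNA-NC, a log2 fold change of 0.34 ± 0.21 (limma adjusted p = 0.471). The 3 probes thus gave log2 fold changes from 0.34 to 0.96.

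Mbnl3, the muscleblind gene known in mouse for opposing muscle differentiation, lies on chromosome X and had 2 probes, both without overlap between the groups. Probe A_66_P140335 read -3.44, -3.95 and -3.53 in siRNA-MEG3, against -4.57, -4.79 and -4.50 in siRNA-NC, and its log2 fold change was 0.95 ± 0.27 (95% interval 0.21 to 1.68; limma adjusted p = 0.191). Probe A_55_P2106255 read 0.58, 0.47 and 0.57 in siRNA-MEG3, against 0.01, -0.30 and 0.04 in siRNA-NC, and its log2 fold change was 0.66 ± 0.23 (95% interval 0.03 to 1.29; limma adjusted p = 0.249). Both intervals lay above 0, and neither probe passed once adjusted over all probes. Together with Mbnl2 probe A_55_P2106265 they were the 3 probes outside Rbm24 and Rbfox1 with an unadjusted p under 0.05.

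Celf1, which binds GU-rich RNA and also marks transcripts for decay, lies on chromosome 2 and had 3 probes with values of both signs. Probe A_51_P204845 read 1.53, 1.44 and 1.48 in siRNA-MEG3, against 0.83, 1.19 and 0.90 in siRNA-NC, a log2 fold change of 0.44 ± 0.23 (limma adjusted p = 0.395). Every siRNA-MEG3 array stood above every siRNA-NC array for this probe. Probe A_55_P1993698 read -0.38, -0.29 and -0.42 in siRNA-MEG3, against -0.37, -0.48 and -0.36 in siRNA-NC, with a log2 fold change of 0.08 ± 0.21 (limma adjusted p = 0.889). Probe A_55_P2282257 read -1.73, -1.80 and -1.77 in siRNA-MEG3, against -1.80, -1.26 and -1.73 in siRNA-NC, with a log2 fold change of -0.26 ± 0.27 (limma adjusted p = 0.671). The groups overlapped for both of these probes. With normexp the sign turned for A_55_P2282257 (0.26), and with normexp and speck spots left out it turned for A_55_P1993698 (-0.053).

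Celf2, a relative of Celf1 that also lies on chromosome 2, had 3 probes, of which 2 were tested. Probe A_55_P2005555 read 0.94, 0.63 and 0.89 in siRNA-MEG3, against -0.62, 0.54 and -0.72 in siRNA-NC. The siRNA-NC arrays were split, with array 2 next to the siRNA-MEG3 arrays, and the log2 fold change of 0.84 ± 0.47 had an interval of -0.44 to 2.11 (limma adjusted p = 0.427). Probe A_51_P182471 read 2.86, 2.72 and 2.80 in siRNA-MEG3, against 2.95, 2.43 and 2.93 in siRNA-NC, with overlap and a log2 fold change of 0.09 ± 0.27 (limma adjusted p = 0.902). Probe A_55_P2005570 was left out of the fit because its spot on siRNA-MEG3 array 2 was marked as not uniform. It read 2.72 and 2.64 on siRNA-MEG3 arrays 1 and 3, against 2.51, 2.28 and 2.50 in siRNA-NC, and with marked spots kept its log2 fold change was 0.19 ± 0.21 (limma adjusted p = 0.692).

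**Figure D2:**
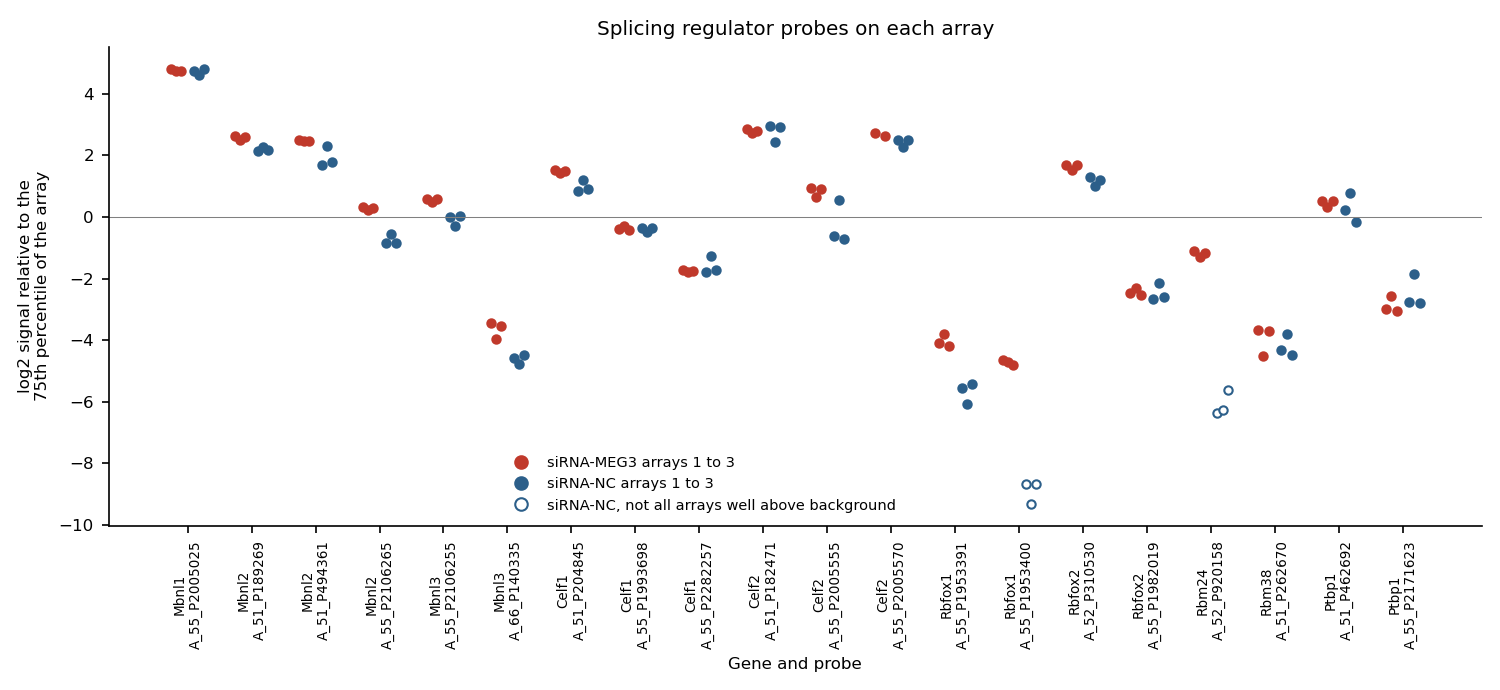
Log2 processed signal relative to the array's 75th percentile (vertical axis) of all 20 probes (horizontal axis) on the 3 siRNA-MEG3 arrays (red, left of each pair) and the 3 siRNA-NC arrays (blue, right), each point being 1 array and open points marking a group not well above background on all its arrays. The groups stand apart by several log2 units for Rbm24 and the second Rbfox1 probe and lie within about 1 unit for most others, and heights of different probes cannot be compared.

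Rbfox1, a splicing regulator of heart, skeletal muscle and brain, lies on chromosome 16 and had 2 probes, both without overlap between the groups. The processed signal of probe A_55_P1953400 was 47.5, 48.1 and 41.7 in siRNA-MEG3, against 3.15, 3.55 and 2.97 in siRNA-NC. With siRNA-MEG3 it passed the background mark on 3 of 3 arrays, and with siRNA-NC on 0 of 3. On the scaled log2 signal the means were -4.73 in siRNA-MEG3 and -9.00 in siRNA-NC, and with the siRNA-NC arrays set at the lowest signal well above background the probe was at least 3.89-fold higher with siRNA-MEG3. The limma adjusted p of 0.0241 belongs to the fit on the readings as measured, those below background included, and not to this bound. The probe entered the test only through siRNA-MEG3, the group in which it was high. With normexp and speck spots left out its fitted log2 fold change was 1.47 and it did not pass (limma adjusted p = 0.149), and the call was also lost with normexp on all spots, with no filter on dim probes and without siRNA-NC array 2 (limma adjusted p = 0.553, 0.0652 and 0.124).

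Probe A_55_P1953391 of Rbfox1 was well above background on every array. It read -4.09, -3.79 and -4.20 in siRNA-MEG3, against -5.55, -6.09 and -5.41 in siRNA-NC, with processed signals of 70.4, 91.8 and 63.5 in siRNA-MEG3 and 27.4, 33.3 and 28.8 in siRNA-NC. Its log2 fold change was 1.82 ± 0.31 (95% interval 0.97 to 2.66), which missed the threshold over all probes (limma adjusted p = 0.101), and also when 1 brightest probe stood for each gene (limma adjusted p = 0.0769), a fit that called 2.44% of 15363 genes and 1 of the 10 splicing regulators, Rbm24. It passed in 5 of 19 alternatives, each of which limits what a pass means. With the siRNA-MEG3 arrays as 1 sample or without siRNA-MEG3 array 2, a lone siRNA-MEG3 sample gave no spread of its own. The log2 fold changes were then 1.82 and 1.64. The other passes, with 6 arrays as 6 samples, with 5 samples and with the replicate block on 6 arrays, counted repeat arrays as samples. The call for Rbfox1 thus rested on the probe that was below background in siRNA-NC.

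Rbfox2, the more widely expressed relative of Rbfox1, lies on chromosome 15 and had 2 probes, neither past the threshold. Probe A_52_P310530 read 1.70, 1.53 and 1.68 in siRNA-MEG3, against 1.29, 1.00 and 1.21 in siRNA-NC, without overlap, and its log2 fold change was 0.49 ± 0.23 (95% interval -0.13 to 1.1; limma adjusted p = 0.343). Probe A_55_P1982019 read -2.46, -2.32 and -2.52 in siRNA-MEG3, against -2.68, -2.13 and -2.61 in siRNA-NC, with overlap and a log2 fold change of -0.02 ± 0.27 (limma adjusted p = 0.983). The sign of the second probe turned in 7 of 19 alternatives.

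Rbm24 lies on chromosome 13 and had 1 probe (A_52_P920158). Its processed signal was 554, 514 and 514 in siRNA-MEG3, against 15.5, 29.1 and 24.8 in siRNA-NC, and on the scaled log2 signal it read -1.11, -1.31 and -1.18 in siRNA-MEG3, against -6.37, -6.28 and -5.62 in siRNA-NC. The siRNA-MEG3 arrays lay close together, far above the siRNA-NC arrays, of which 2 of 3 were well above background, array 1 being the exception. The log2 fold change was 4.91 ± 0.23 (SE, n = 2 samples per group), a 30.1-fold difference with a 95% interval of 19.5 to 46.4 (limma adjusted p = 0.0188). This size includes the siRNA-NC array 1 reading, which was not well above background. The probe thus entered the test only through siRNA-MEG3, the group in which it was high. With normexp and speck spots left out the log2 fold change was 2.93 and still passed (limma adjusted p = 0.0169). Without siRNA-NC array 2, which left a lone siRNA-NC sample assumed to vary like the other group, it stood at 4.77 and did not pass (limma adjusted p = 0.124). It also missed the threshold with normexp on all spots (limma adjusted p = 0.553) and with no filter on dim probes (limma adjusted p = 0.0529).

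Rbm38, on chromosome 2, had 1 probe (A_51_P262670), which read -3.66, -4.53 and -3.69 in siRNA-MEG3, against -4.33, -3.79 and -4.50 in siRNA-NC. Array 2 stood below arrays 1 and 3 in siRNA-MEG3 and above them in siRNA-NC, and the groups overlapped. The interval of the log2 fold change, -1.12 to 1.12, leaves room for a change of either sign (SE 0.41; limma adjusted p = 1.00). The Rbm24 interval of 4.29 to 5.54 lay wholly above it.

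Ptbp1, the repressor of muscle and neuronal exons on chromosome 10, had 2 probes, both with overlap between the groups. Probe A_51_P462692 read 0.52, 0.32 and 0.51 in siRNA-MEG3, against 0.24, 0.76 and -0.17 in siRNA-NC, with a log2 fold change of 0.02 ± 0.33 (limma adjusted p = 0.980). Probe A_55_P2171623 read -2.99, -2.58 and -3.06 in siRNA-MEG3, against -2.76, -1.87 and -2.78 in siRNA-NC, with a log2 fold change of -0.48 ± 0.40 (95% interval -1.56 to 0.59; limma adjusted p = 0.586). In both probes siRNA-NC array 2 was the highest of all 6 arrays. The spread among siRNA-NC samples was wide over the 19 probes, with a median SD of 0.36 in log2, against 0.08 among siRNA-MEG3 samples. All probes tested shared this imbalance, with medians of 0.29 in siRNA-NC and 0.10 in siRNA-MEG3.

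Among named probes of other genes, those with the array pattern most like Rbm24, by the root mean square difference of centred log2 values over the 6 arrays, were Myh8 (0.195), the perinatal myosin heavy chain of muscle, and Cd40 (0.196), an immune receptor that was below background on all siRNA-NC arrays. For Rbfox1 probe A_55_P1953400 they were Tmprss11f (0.0392), a membrane protease also below background in siRNA-NC, and Myl4 (0.0728), a myosin light chain of atrial and embryonic muscle. For Rbfox1 probe A_55_P1953391 they were Prss46 (0.106), a serine protease, and Tdgf1 (0.118), a signalling co-receptor. Likeness over 6 arrays of 4 samples describes these arrays only.

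**Figure D3:**
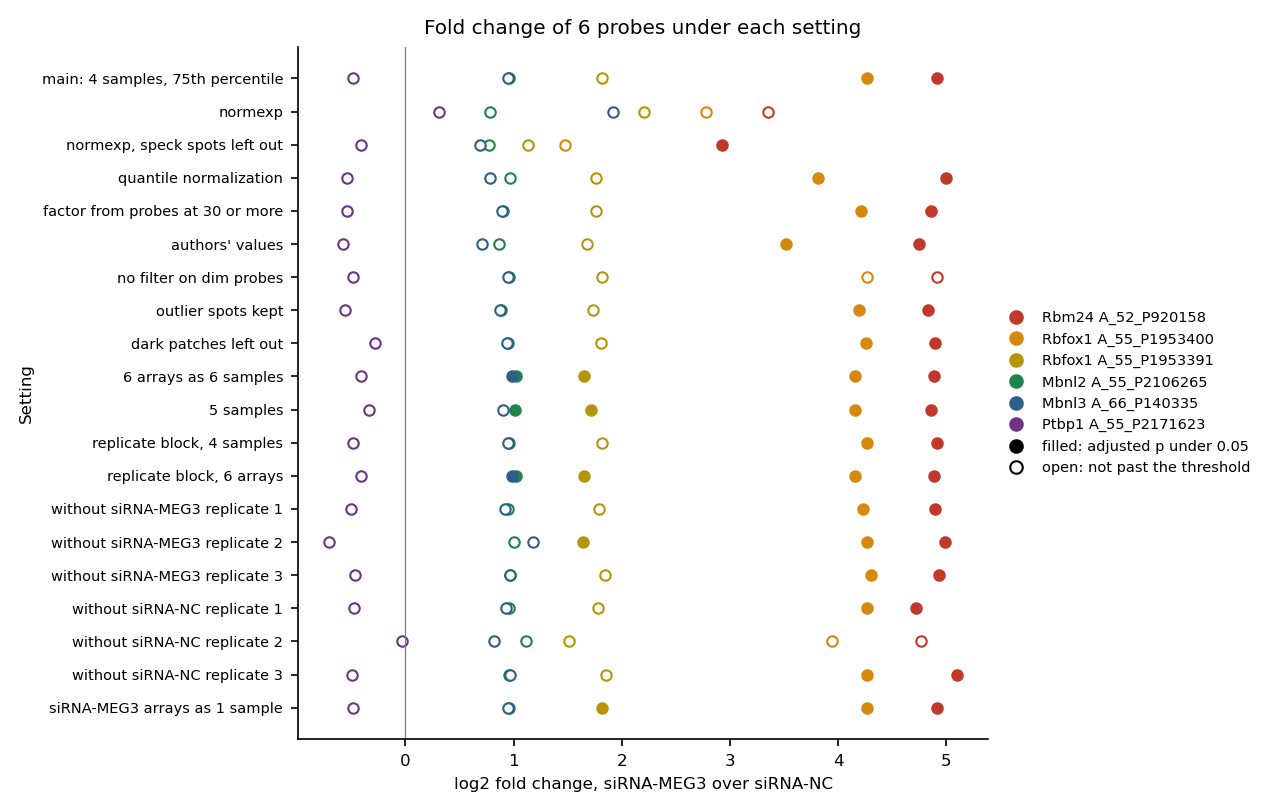
Fitted log2 fold change, siRNA-MEG3 over siRNA-NC (horizontal axis), of 6 probes under the main setting and each of 19 alternatives (vertical axis), filled where the adjusted p was under 0.05. Rbm24 stayed between 2.93 and 5.10 and passed in 16 of the 19, Rbfox1 probe A_55_P1953400 stayed between 1.47 and 4.31 and passed in 15, its values being fits on siRNA-NC readings below background, and the other 4 probes passed in 5 or fewer.

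Other splicing factors, a list of 73 genes for SR proteins, hnRNPs, their kinases and further regulators, were counted next. Of 65 that could be tested with 1 brightest probe per gene, 2 rose, 0 fell and 63 did not pass, against 1.34% higher and 0.26% lower among all genes counted that way. The list had a median log2 fold change of 0.10. Srpk3, a muscle kinase of SR proteins, read -3.46, -3.61 and -3.53 in siRNA-MEG3, against -7.88, -8.58 and -7.96 in siRNA-NC, where no array was well above background, and was at least 8.79-fold higher. It was tested only through siRNA-MEG3, and its limma adjusted p of 0.0232 belongs to the fit on the readings as measured. That call was lost with normexp (limma adjusted p = 0.553, or 0.123 without speck spots), with no filter on dim probes (0.0652) and without siRNA-NC array 2 (0.124). Khdrbs3, an RNA-binding protein of the STAR family, read -0.45, -0.19 and -0.48 in siRNA-MEG3, against -2.98, -3.44 and -3.20 in siRNA-NC, a log2 fold change of 2.94 ± 0.25 (limma adjusted p = 0.0295). The next by p stood lower without passing: Tra2b, an SR-like activator, at -1.65 ± 0.31 (limma adjusted p = 0.115), and Celf3, a CELF gene of the nervous system that was below background on all siRNA-MEG3 arrays (limma adjusted p = 0.144).

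Genes known for alternative exons in muscle made up a list of 42. Of 36 that could be tested, 7 rose, 0 fell and 29 did not pass, against 1.34% higher and 0.26% lower among all genes, and the median log2 fold change was 0.49. The array measures a level per probe and no exon use. The rise was largest for Pdlim3, a Z-disc protein with muscleblind-dependent exons, at 1.71, 1.60 and 1.66 in siRNA-MEG3, against -5.24, -5.50 and -5.23 in siRNA-NC (log2 fold change 7.01 ± 0.22; limma adjusted p = 0.0188). Ryr1, the calcium release channel, stood 4.05 ± 0.20 higher in log2, and the troponin T genes Tnnt3 and Tnnt2 stood 3.99 ± 0.21 and 3.71 ± 0.21 higher (limma adjusted p = 0.0188, 0.0188 and 0.0203). The remaining 3, named after their values were seen, were the giant sarcomere proteins Ttn and Neb and the calcium channel Cacna1s, at log2 fold changes of 4.51, 4.44 and 3.44.

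The core spliceosome, given by 50 genes for small nuclear ribonucleoproteins and their helicases, showed 0 calls in either direction in limma. Among all genes, 1.34% were called higher and 0.26% lower. At an unadjusted p under 0.05, 3 of the genes passed, against 19.1% of all probes, a share counted by probe and not by gene. The median log2 fold change was -0.03. Cwc22, which recruits the exon junction complex, stood at -0.89 ± 0.20 (limma adjusted p = 0.145). Dhx15, a helicase that takes spliceosomes apart, stood at 0.57 ± 0.21, and Snrpb, a shared core protein of the ribonucleoproteins, at -1.28 ± 0.48 (limma adjusted p = 0.254 and 0.263). For Snrpb, siRNA-NC array 2 read -0.33, against -1.56 and -1.63 on arrays 1 and 3, and without it the log2 fold change was -0.65. U2af2, which binds the polypyrimidine tract, was below background on all siRNA-MEG3 arrays and well above it on all siRNA-NC arrays (limma adjusted p = 0.248).

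**Figure D4:**
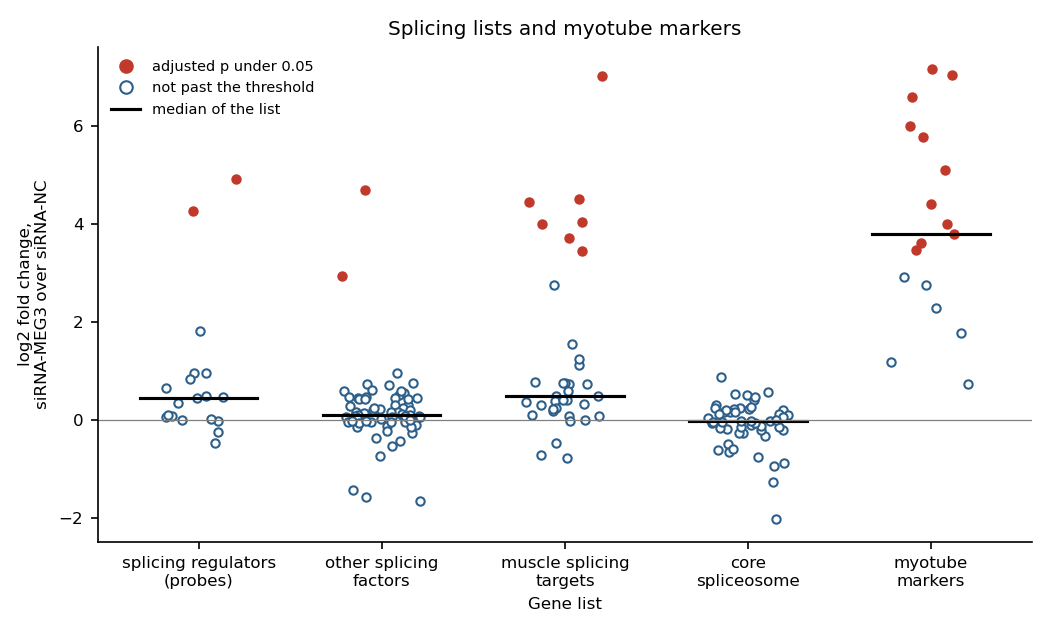
Fitted log2 fold change, siRNA-MEG3 over siRNA-NC (vertical axis), of the 19 splicing regulator probes and of the tested genes of 4 lists (horizontal axis), each point being 1 probe, red where the adjusted p was under 0.05, with a bar at the median of each list. Medians were 0.44 for the regulators, 0.10 for other splicing factors, 0.49 for muscle splicing targets, -0.03 for the core spliceosome and 3.80 for myotube markers. The points for Rbfox1 probe A_55_P1953400 and Srpk3 rest on siRNA-NC readings below background, and those for Celf3 and U2af2 on siRNA-MEG3 readings below background. Some but not all arrays of a group were so for Rbm24, Myh1, Myh8, Ckm and Esrp2.

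Markers of muscle differentiation were higher with siRNA-MEG3, as Rbm24 was. Of 17 tested myotube markers of 18, 11 rose and 0 fell, against 1.34% higher and 0.26% lower among all genes. Of the 11, Myh1 and Myh8 were tested only through siRNA-MEG3, with 1 and 2 of 3 siRNA-NC arrays well above background. So was Ckm, which was not called, with 2 of 3. The summed signal of the myotube markers relative to the 75th percentile ranged from 71.2 to 77.4 over the siRNA-MEG3 arrays, against 9.22 to 10.6 over the siRNA-NC arrays. Tnnt1 and Tnnt3 are in this list and among the muscle splicing targets, and Myod1 is among both myotube and myoblast markers. Myoblast markers, 7 of 8 tested and 0 called, summed to 40.4 to 42.0 in siRNA-MEG3, against 24.8 to 30.4 in siRNA-NC. Within that list Myf5, a factor of committed myoblasts, stood at a log2 fold change of -2.87 ± 0.41 (limma adjusted p = 0.0729). Myod1, the myogenic master regulator, stood at 2.29 ± 0.43, Cdh15 at 1.41 ± 0.24 and Itga7 at 0.82 ± 0.21 (limma adjusted p = 0.113, 0.0954 and 0.165). All of them lay without overlap between the groups' arrays, and none passed the threshold. The groups overlapped for Ncam1, Des and Pax7. Of these 7, 6 were well above background on every array of both groups, and Pax7 was so on 1 of 3 siRNA-MEG3 arrays and on 3 of 3 siRNA-NC arrays. Of other cell types that a C2C12 culture could hold, fibroblast markers summed to 110 to 144 in siRNA-MEG3, against 107 to 159 in siRNA-NC (4 of 6 tested, Dpt below background on all arrays), adipocyte markers to 1.53 to 1.61, against 0.974 to 1.42 (5 of 5), and osteoblast markers to 0.0780 to 0.184, against 0.0693 to 0.0969 (3 of 4), with 0 called in each. At the shares of all genes, 0 calls in lists this short, myoblast markers included, say little. A sum weights probes by brightness. The fibroblast sum was mostly Col3a1, at 7.14, 6.75 and 7.05 in siRNA-MEG3, against 7.27, 6.7 and 7.12 in siRNA-NC. Pdgfra stood at a log2 fold change of -0.67 ± 0.25 and Thy1 at 0.38 ± 0.23. Each lay without overlap between the groups, and neither passed (limma adjusted p = 0.269 and 0.469). The adipocyte markers went both ways, each without overlap. Adipoq, below background on all siRNA-MEG3 arrays, and Plin1, well above it on 1 of 3, stood lower. Cidec, Fabp4 and Pparg stood higher, at log2 fold changes of 1.00, 0.67 and 0.37. The part of differentiation in the Rbm24 and Rbfox1 values was not tested, and in these bulk cultures more cells of a kind and more RNA per cell cannot be told apart.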

How the data were processed

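Total RNA was measured on 6 single-colour Agilent mouse arrays. Per the file headers, Agilent Feature Extraction 11.0.1.1 wrote the deposited scanner files, which hold per spot a processed signal intensity (background-subtracted and detrended), a median signal and local background intensity, and quality marks. The authors' deposited series table holds log2 values of 30732 probes with a median of 8.11 in each column. These values followed the log2 scanner signal of their own arrays (r 0.9991 to 0.9997), and the step used between arrays is not known. Per the labels, the authors averaged replicated probes and took a scaling factor from probes whose intensities reached 30 on every array.

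Outlier-marked and control spots were removed, spots of a probe were averaged, and log2 processed signals were set relative to the 75th percentile of each array. Of 39429 probes, 27234 were named through RefSeq accessions (GRCm38.p6) and 12195 were not. Kept probes (26342, for 15363 named genes) passed the background mark on every array of 1 or both groups and had a usable value in each of the 4 samples. The test was limma (version 3.58.1, run in R 4.3.3; lmFit, eBayes, 2-sided, no covariate, 2 residual and 2.31 prior degrees of freedom), at an adjusted p of 0.05. A lower bound sets each dim reading at the lowest signal well above background on its array. The number of arrays limits the precision. The code was tested on simulated data.

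Alternatives changed the background correction, the scaling, the filters, the arrays counted as samples and the replicates. Normexp (offset 50) used the median signal of a spot in place of the planned mean signal. Named genes were every probe of the 10 genes, the up to 4 smallest p of each splicing list and the 2 nearest patterns of the 3 probes with the smallest p. The members and lists were chosen with earlier results of these data known, among them the rise of muscle genes, so they lend no independent support. Same-numbered arrays did not deviate together (r from -0.04 to -0.03), so replicate numbers were not used as pairs.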

Additional observations from a re-analysis of the deposited data

How the results depend on the processing

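Over 19 alternatives for each probe, Rbm24 and both Rbfox1 probes stayed higher with siRNA-MEG3. So did every probe of Mbnl2 and Mbnl3, Celf1 A_51_P204845, Celf2 A_55_P2005555 and Rbfox2 A_52_P310530. By the threshold, 0 probes of Mbnl1, Celf2, Rbm38 and Ptbp1 passed in any alternative. Rbm24 passed in 16 (adjusted p from 1.66e-17 to 0.553) and Rbfox1 A_55_P1953400 in 15 (6.74e-13 to 0.553), the smallest p coming from fits in which siRNA-MEG3 had 1 sample and took its spread from siRNA-NC. Readings near background in siRNA-NC limit the size of both. The cause of the changes below was not tested unless stated. Of the 19 splicing regulator probes, 2 passed, against 0 with normexp, 1 with normexp without speck spots, 0 with no filter on dim probes, 9 with 6 arrays as 6 samples, 4 with 5 samples, 1 with 1 value per gene, and 0 to 3 with a replicate left out, 0 being without siRNA-NC array 2. For other splicing factors (2 passed) these were 0, 1, 0, 16 and 4, and 0 to 4 with a replicate left out. For muscle splicing targets (7) they were 0 with normexp and with no filter, 19 and 12 with 6 and 5 samples, and 0 to 11. For the core spliceosome (0) they were 5 and 1 with 6 and 5 samples, 1 with siRNA-MEG3 as 1 sample, and 0 to 1. Of all probes, 357 passed, against 0 with normexp and with no filter, 6936 and 2250 with 6 and 5 samples, 1129 with siRNA-MEG3 as 1 sample (chosen after seeing the data), and 0 to 3138 with a replicate left out. Counting repeat arrays as samples lowers the spread by construction. With no filter, 38916 probes entered the fit. With a replicate block on 6 arrays, the counts were 5 splicing regulator probes, 8 other factors, 14 targets, 1 core gene and 3623 probes; the numbers do not pair the samples, and a block on the 4 samples changed no call of a splicing regulator probe.

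Signs turned for small values. With normexp, which moved the median of all probes to 0.62 (0.17 without the 19 speck spots), log2 fold changes were -0.40 for Mbnl1, 0.26 for Celf1 A_55_P2282257, -0.22 for Celf2 A_51_P182471, 0.60 for Rbfox2 A_55_P1982019, -0.18 and 0.31 for Ptbp1 A_51_P462692 and A_55_P2171623, 1.52 for Celf3 and 1.12 for U2af2. Without speck spots they were -0.053 for Mbnl1 and Celf1 A_55_P1993698 and -0.12 for Ptbp1 A_51_P462692. With outlier spots kept they were -0.016 for Mbnl1, -0.077 for Rbm38 and -0.054 for Ptbp1 A_51_P462692. With dark patches left out, which rests 7 of the probes on 1 siRNA-MEG3 sample, they were 0.050 for Rbfox2 A_55_P1982019, -0.010 for Rbm38 and -0.094 for Ptbp1 A_51_P462692. The authors' values gave -0.18 for Rbm38 and -0.070 for Ptbp1 A_51_P462692, a factor from probes at 30 or more gave -0.055 and -0.032, and quantile normalization gave -0.14 for Rbm38. Rbfox2 A_55_P1982019 was 0.040 with 6 arrays, with or without the replicate block, and 0.069 with 5 samples. With a replicate left out, values ranged from -0.016 to 0.081 for Mbnl1, -0.17 to 0.14 for Celf2 A_51_P182471, -0.10 to 0.24 for Rbfox2 A_55_P1982019, -0.042 to 0.43 for Rbm38 and -0.078 to 0.39 for Ptbp1 A_51_P462692.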
